A study of Mus musculus with 14 samples.

Results

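The late change of hematopoietic stem cells (HSC) was read as the difference between HSC of 21-mo-old and of 6-mo-old wild-type (WT) mice. It rests on 4 of the 14 arrays of the series, 21 mo arrays A and B against 6 mo arrays A and B, and covers the 22626 probe sets that are not controls. All 4 arrays held HSC of male C57Bl/6 mice (C57Bl/6 CD45.1 in the study's methods) with no treatment and no p53 mutation, sorted from bone marrow as cells that pump out the dye Hoechst (the side population), carry c-Kit and Sca-1 and lack lineage markers. Each array held a pool of 2 to 5 mice, whose RNA was amplified in 2 rounds by in vitro transcription, so no value belongs to a single mouse. The remaining arrays held WT HSC of 2 and 12 mo, whole bone marrow (WBM) of 2-mo-old WT mice, and HSC of p53+/m and of p53+/- mice aged 12 mo, again 2 in each group. The strain field of the labels reads 2 months throughout; the ages used here are those of the titles and the treatment field. The labels do not say whether A and B were separate pools of mice, so the p-values measure the spread between these arrays, which may be technical.

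HSC sit at the top of blood formation. They divide rarely, are held in the marrow niche by adhesion molecules and by signals such as Kit ligand and thrombopoietin, and keep a low mitochondrial activity with a glycolytic metabolism. In aged mice they are known to increase in number, to give rise to more myeloid and platelet progeny and fewer lymphocytes, and to do worse on transplantation.

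Of the 22626 probe sets, 501 (2.21%) rose and 466 (2.06%) fell at 21 mo relative to 6 mo. Here and throughout, "rose" and "fell" mean an adjusted p under 0.05 in limma and a change of at least 2-fold, that is, 1 on the log2 scale. The 21 mo arrays lay wholly above the 6 mo arrays in all 501 rises and wholly below them in all 466 falls; over all probe sets the arrays were apart in this way in 19.2% for higher and 30.9% for lower values at 21 mo. The median change was 1.60 on the log2 scale among the rises and -1.56 among the falls, with 130 rises and 113 falls of 4-fold or more and 26 rises and 15 falls of 8-fold or more. Among the rises, 125 probe sets had both 6 mo arrays below a log2 value of 5, and among the falls 65 had both 21 mo arrays below it, so that a fold change there is set against signal near the bottom of the scale. Read on the brightest probe set of each gene, 288 of 12393 genes rose (2.32%) and 318 fell (2.57%). Of the 12393 genes, 6293 were detected, that is, at a log2 value of 5 or above on at least 2 of the 6 WT HSC arrays of 2, 6 and 21 mo. A positive change was seen in 33.9% of all genes and 48.7% of detected genes. Grouped by genomic span, 2.49% to 6.26% of detected genes rose and 2.60% to 7.22% fell, more than over all genes.

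**Figure D1:**
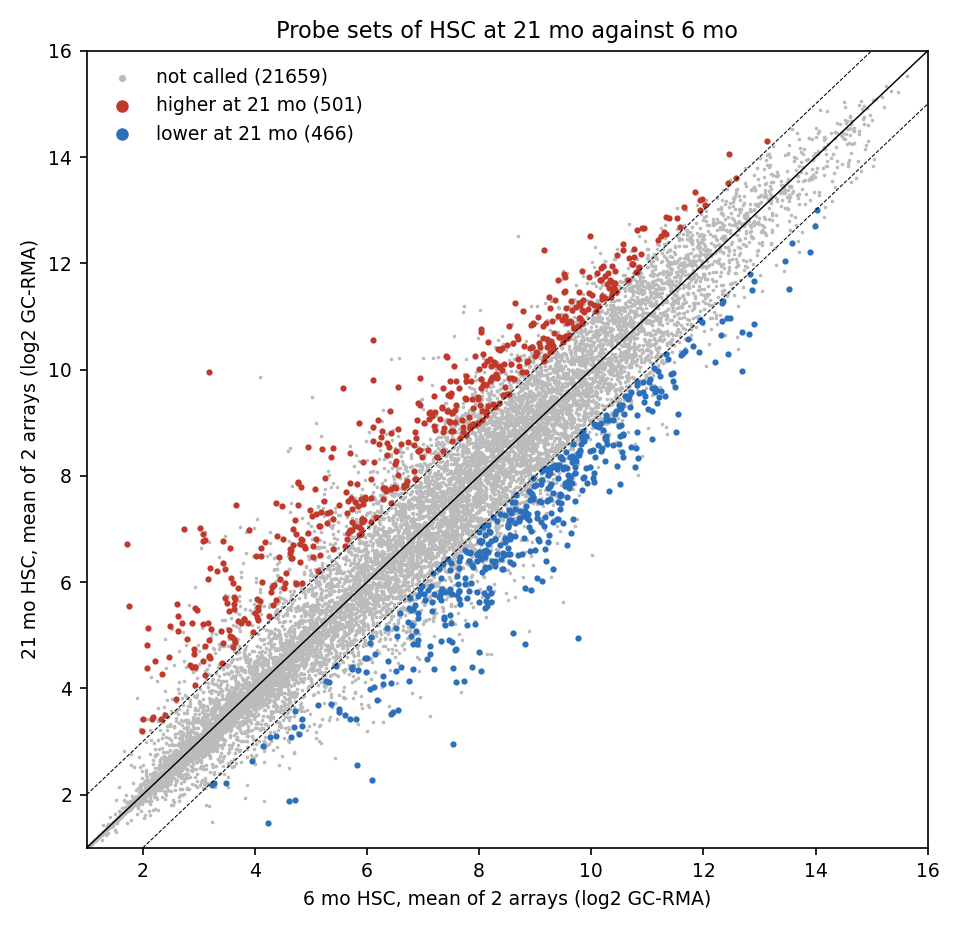
Each point is a probe set, with its mean log2 GC-RMA value over the 2 arrays of 21 mo on the vertical axis and over the 2 arrays of 6 mo on the horizontal axis; the solid line marks equal values and the dashed lines a 2-fold difference. The 501 rises (red) and 466 falls (blue) lie outside the dashed lines over the whole range, and many of the probe sets beyond 2-fold (grey) did not pass the test.

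These counts depended on the arrays fitted. Fitted on the 4 arrays alone, 185 probe sets rose and 167 fell, of which 157 and 141 were among the 501 and 466; the same counts came from leaving out 2 mo array A or 2 mo array B. Without 21 mo array A the counts were 256 and 162, without 21 mo array B 223 and 154, without 6 mo array A 215 and 182, and without 6 mo array B 489 and 403; in that fit 245 rises and 225 falls were shared with those given above. The median absolute difference between arrays A and B over all probe sets, dim ones included, was 0.0642 at 21 mo and 0.0813 at 6 mo (log2). Arrays A and B lay at least 2-fold apart in 2.02% of probe sets at 21 mo and 4.48% at 6 mo.

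The 12 leading rises ran over genes of varied function. Chil3, which encodes a chitinase-like protein secreted by myeloid cells, gave 9.59 and 10.32 at 21 mo, against 2.67 and 3.71 at 6 mo, a change of 6.76 ± 0.75 (log2, standard error; adjusted p = 0.0303). Both 21 mo arrays stood far above both 6 mo arrays, and the 2 mo arrays, at 5.99 and 4.35, lay between. Ly86, the partner protein of a B cell and myeloid Toll-like receptor relative, gave 6.30 and 7.13 at 21 mo, against 1.72 and 1.74 at 6 mo. Mapk6, the atypical kinase ERK3, gave 10.39 and 10.72 at 21 mo, against 6.09 and 6.11 at 6 mo, a change of 4.45 ± 0.14 (adjusted p = 0.00522). The arrays of each age lay close together in Mapk6, and its 2 mo values of 6.17 and 5.98 were level with those of 6 mo.

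Clu, which encodes the secreted chaperone clusterin, was read by 4 probe sets. The probe set that rose gave 9.36 and 9.94 at 21 mo, against 5.83 and 5.34 at 6 mo; the brightest gave 12.13 and 12.91, against 9.42 and 7.96, a change of 3.83 ± 0.59 with an adjusted p of 0.0515. All 4 probe sets of Clu were higher on both 21 mo arrays, and in the 3 that missed the threshold 6 mo array A lay well above 6 mo array B. Hs6st1, which sulfates heparan chains, gave 7.15 and 6.88 at 21 mo, against 2.97 and 3.07 at 6 mo. Neo1, which encodes neogenin, a receptor of netrins and repulsive guidance molecules, gave 9.64 and 9.95, against 5.84 and 6.38, and was higher on 12 mo array A (10.17) than on 12 mo array B. Cavin2, a coat protein of caveolae, gave 7.52 and 7.37 at 21 mo, against 3.73 and 3.61 at 6 mo, on a probe set that kept its call under all 15 refitted alternatives. The other leading rises were Cd28, a costimulatory receptor known from T cells (3.84 ± 0.42), Slfn4 of the Schlafen family (3.80 ± 0.34), Ms4a4c (3.71 ± 0.29), Arf6, a small GTPase of membrane traffic (3.68 ± 0.24), and a probe set of Ctnnb1, which encodes β-catenin (4.26 ± 0.11). Of the 15 alternatives, the call was kept in 13 for Mapk6 and this Ctnnb1 probe set, in 12 for Hs6st1, in 11 for Neo1, in 10 for Ly86 and Ms4a4c, in 9 for Slfn4, in 8 for Arf6, in 6 for Clu and in 5 for Chil3 and Cd28.

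The 12 leading falls were as varied. Wwox, an oxidoreductase known as a tumor suppressor, gave 4.37 and 5.32 at 21 mo, against 8.54 and 9.09 at 6 mo, a change of -3.97 ± 0.42 (adjusted p = 0.0284). Anxa6, a calcium-dependent membrane-binding annexin, gave 4.08 and 4.20 at 21 mo, against 7.74 and 7.74 at 6 mo, and -3.60 ± 0.06 had the smallest standard error of the 12 leading falls; 2 dimmer probe sets of Anxa6 gave 0.27 and -1.17 and were not called. The groups stood well apart in both genes, with arrays of the same age closer together in Anxa6 than in Wwox. Syne1, which encodes the nuclear envelope protein nesprin-1, gave 4.55 and 5.55 at 21 mo, against 8.56 and 8.65 at 6 mo. Nbeal2, needed for the α-granules of platelets, gave 3.84 and 4.38, against 7.22 and 7.94. Gcnt2, which branches glycan chains, and St3gal5, which makes the ganglioside GM3, changed by -3.70 ± 0.55 and -3.26 ± 0.34. Both were also read by brighter probe sets that did not fall, at 0.66 ± 0.27 and 0.22 ± 0.62.

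The next 3 of the leading falls act in mitochondria or in the synthesis of coenzyme A. Mrpl58, a peptidyl-tRNA hydrolase of the mitochondrial ribosome, gave 4.75 and 4.05 at 21 mo, against 8.46 and 7.28 at 6 mo. Mecr, the last enzyme of mitochondrial fatty acid synthesis, gave 4.37 and 4.38, against 7.78 and 7.31. Ppcdc, an enzyme of coenzyme A synthesis, gave 4.68 and 4.69, against 7.92 and 8.06. In all 3 the 21 mo values fell below a log2 value of 5. Polr2f, a subunit shared by the nuclear RNA polymerases, changed by -3.09 ± 0.23, Ptov1 by -3.07 ± 0.33 and Tecpr1, which acts in autophagy, by -2.96 ± 0.27. The brightest probe sets of Ppcdc (-0.89), Ptov1 (-1.70) and Tecpr1 (-1.08) were lower by less and were not called. The calls of the falls were kept in 14 of 15 alternatives for Anxa6, in 11 for Mecr, in 9 for Ppcdc and St3gal5, in 8 for Polr2f and Tecpr1, in 7 for Ptov1, in 6 for Syne1 and Nbeal2, in 5 for Wwox and in 4 for Gcnt2 and Mrpl58.

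**Figure D2:**
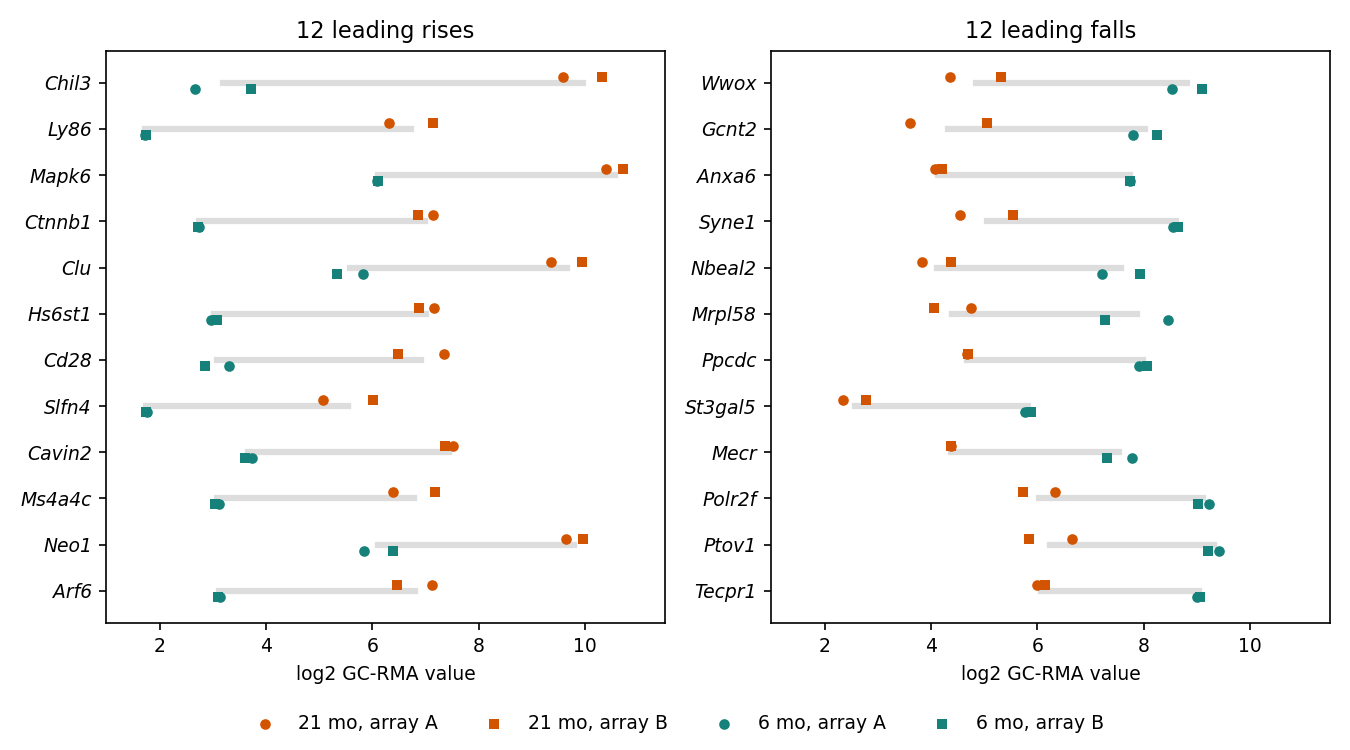
Log2 GC-RMA values of the 12 leading rises (left) and falls (right), with 21 mo arrays in orange, 6 mo arrays in teal, array A as a circle and array B as a square; grey bars join the means. The 24 genes were chosen with the arrays of the 2 ages apart, so that the lack of overlap is fixed by the choice. The distance between arrays of the same age is wider in Chil3 and Wwox than in Cavin2 and Anxa6.

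The HSC identity of the cells was visible at both ages. Procr, the endothelial protein C receptor that marks HSC, gave 13.62 and 14.09 at 21 mo, against 13.07 and 13.19 at 6 mo and 4.41 on WBM array A. Cd48, which is absent from HSC, was near the bottom of the scale, at 2.78 and 2.74, against 2.68 and 3.07, and was 10.56 on WBM array A. Of 22 measured HSC surface genes, 2 rose (9.09%, against 2.32% of all genes) and 2 fell (9.09%, against 2.57%), with a median change of 0.36. Over all 12393 genes the median was -0.01. Alcam, an adhesion molecule of HSC and niche cells, rose by 1.97 ± 0.16 and Kit, the receptor of stem cell factor, by 1.01 ± 0.08. Robo4, a guidance receptor that holds HSC in the marrow, fell by 1.37 ± 0.15, and Eng, a TGF-β coreceptor, fell by 1.02 ± 0.11. Kit gave 10.16 and 10.18 at 21 mo, against 9.26 and 9.06 at 6 mo, and just passed the 2-fold threshold, as did Eng; their calls were kept in 4 and 3 of 15 alternatives. Another probe set of Eng, at a similar level, had a value of 0.54 ± 0.13. Integrin Itgb1 (1.23, adjusted p = 0.0538), Tek (1.57, adjusted p = 0.0605) and Flt3 (-2.15, adjusted p = 0.165) did not pass the test.

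Of 35 measured transcription factors of HSC, 2 rose (5.71%, against 2.32% of all genes) and 1 fell (2.86%, against 2.57%), with a median change of 0.08. Hlf, which restrains HSC from cycling, gave 11.55 and 11.24 at 21 mo, against 9.97 and 10.06 at 6 mo, and rose by 1.38 ± 0.17. A dimmer probe set of Hlf ran the other way, with 7.57 and 7.66, against 8.36 and 8.81, and was not called. Foxo1, a target of insulin signaling that supports resistance to oxidative stress, gave 8.93 and 8.98, against 7.94 and 7.92, and rose by 1.03 ± 0.04. Hoxa5 gave 8.19 and 8.45, against 9.53 and 9.90, and fell by 1.40 ± 0.16. Runx1, the factor needed for the emergence of HSC, had a value of 1.41 ± 0.29 on its brightest probe set (adjusted p = 0.0808) and -1.11 ± 0.47 on another, and neither passed the test.

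Most measured genes of mature myeloid cells had a positive change, and few passed the test. Among 18 measured neutrophil genes 2 rose (11.1%, against 2.32% of all genes), Chil3 and the collagenase Mmp8, and none fell. Mmp8 stayed below a log2 value of 5, at 3.65 and 3.21 at 21 mo, against 2.19 and 2.16 at 6 mo. Chil3 and Mmp8 both lost the call on the 4 arrays alone. Of the 18, 11 were detected and 16 had a positive change, and the list median was 1.05. Among 21 monocyte genes 3 rose (14.3%), Ly86, the receptor Csf1r and the Fc receptor Fcgr3, and none fell. Of the 21, 10 were detected and 13 were positive, and the median was 0.90. Csf1r gave 4.89 and 5.40 at 21 mo, against 2.11 and 2.10 at 6 mo, and Fcgr3 gave 4.60 and 4.89, against 2.97 and 2.87. Ccl6, a chemokine of myeloid cells, gave 6.32 and 5.78, against 3.02 and 3.30. All of these were far higher on the WBM arrays, where array A gave 9.23 for Csf1r, 11.57 for Fcgr3, 12.77 for Mmp8, 12.39 for Slfn4 and 14.86 for Chil3. On the linear scale the summed neutrophil genes came to 20000 and 19100 at 21 mo, against 13700 and 12500 at 6 mo, with 309000 on WBM array A; the summed monocyte genes came to 1850 and 2380, against 1350 and 1210, with 20700. The granule gene S100a8 gave 10.02 and 8.94 at 21 mo, against 4.35 and 5.70 at 6 mo, but was 9.62 and 8.23 at 2 mo, and Elane was near the bottom of the scale on all of these arrays, at 2.31 and 2.22, against 2.21 and 2.18. More cells of a type and more RNA per cell cannot be told apart in such pools, and the part of mature myeloid cells in the late rises was not tested.

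Genes of megakaryocytes and platelets moved in both directions, with 3 of 22 higher (13.6%, against 2.32% of all genes) and 1 lower (4.55%, against 2.57%). Selp, which encodes the adhesion molecule P-selectin, gave 10.63 and 10.78 at 21 mo, against 8.57 and 7.48 at 6 mo, and rose by 2.68 ± 0.39 (adjusted p = 0.0474). It lost the call on the 4 arrays alone and without either 2 mo array or either 21 mo array, and the gap between 6 mo arrays A and B was wider than that between the 21 mo arrays. Cavin2 on its brighter probe set rose by 3.10 ± 0.44 and Rab27b, a GTPase of granule release, by 1.25 ± 0.18. Fermt3, the integrin activator kindlin-3, fell by 1.22 ± 0.12. The platelet genes Gp9 and Gp1bb were near the bottom of the scale at both ages, at 1.83 and 1.84, against 1.85 and 1.83, for Gp9, and Vwf overlapped between the ages, with 9.80 and 10.74 at 21 mo on either side of 6 mo array A. None of 20 B lineage, 18 T and NK cell, 14 erythroid, 6 plasma cell, 18 endothelial and stromal and 7 MHC class II genes rose or fell in limma. Of these 83 genes, 0 were higher and 2 lower by 2-fold with a p up to 0.05 before adjustment. Only 2 of the B lineage, 1 of the T and NK cell and 2 of the erythroid genes were detected. A fall could therefore hardly show in most genes of those lists. Ms4a1 of the B lineage list had an adjusted p of 0.0246 at a change of only -0.44.

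**Figure D3:**
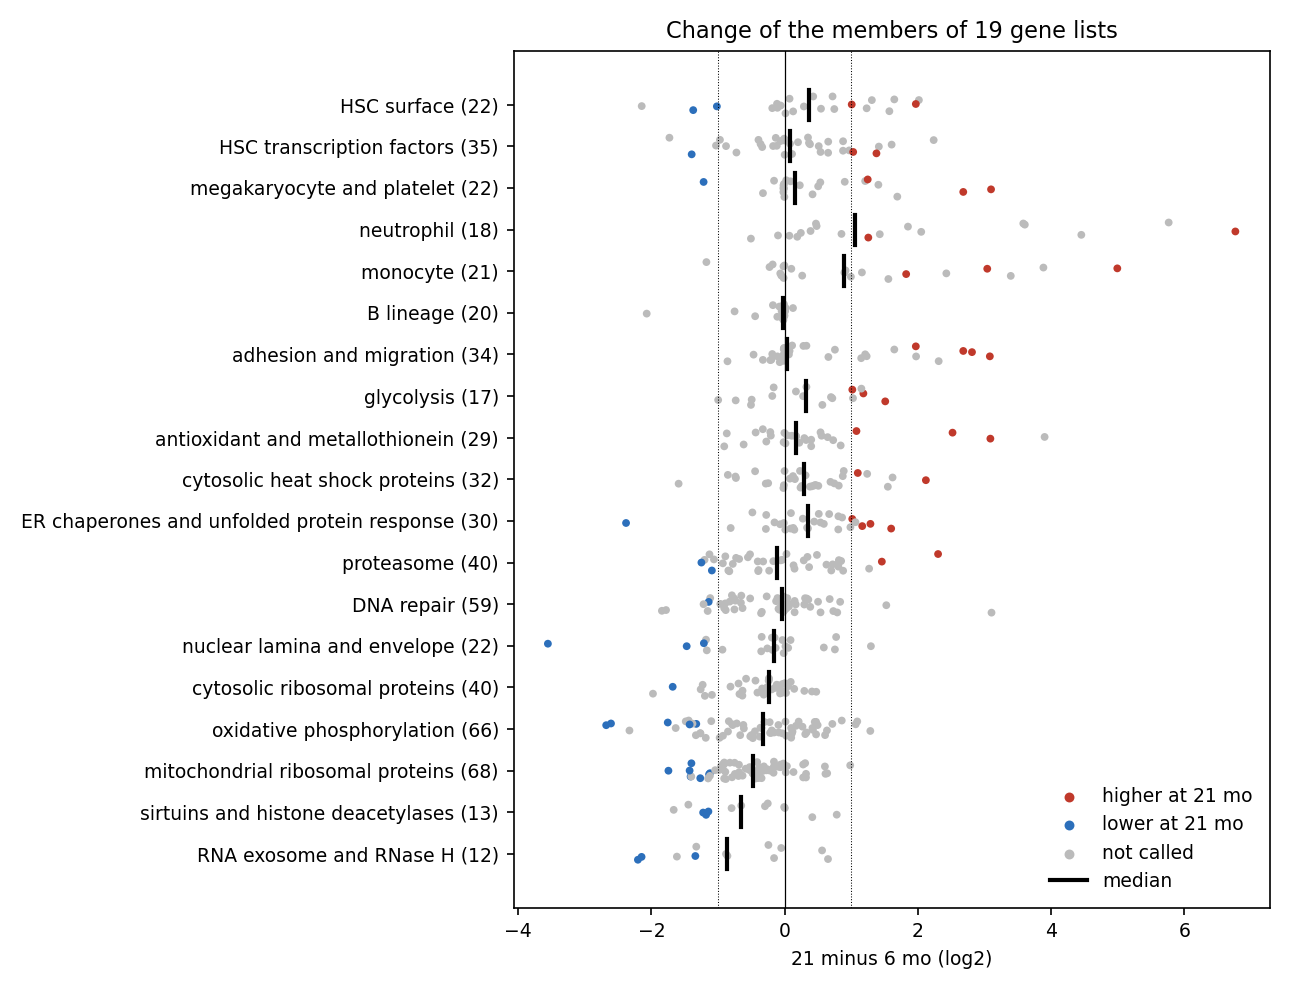
Change from 6 to 21 mo of every measured member of 19 gene lists, on the log2 scale as 21 minus 6 mo, with the number of members in parentheses; red members rose, blue members fell, grey members did not pass the test, and black bars mark medians. The neutrophil (1.05) and monocyte (0.90) medians lie highest and that of the RNA exosome and RNase H list (-0.87) lowest.

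Protein folding genes of the endoplasmic reticulum rose in part. This organelle raises its chaperones when misfolded proteins load it: the sensor ATF6, and XBP1 acting downstream of the sensor IRE1, then act on promoters that hold the endoplasmic reticulum stress element (ERSE), a CCAAT box set apart from a CCACG. Of 30 measured genes 4 rose (13.3%, against 2.32% of all genes) and 1 fell (3.33%, against 2.57%), 22 were positive, and the median was 0.34. Among the 4, Hspa5 and Dnajc3 are genes that the study itself names as rising on these samples. The share that rose is therefore not independent of its choice. The promoters of 4 of them are shown because they hold one of these elements or a CCAAT box, Hspa5, Dnajc3 and Herpud1 among the 4 that rose and Ddit3 as the 1 that fell; the promoter of Ero1a, which rose most, holds none of the 3 motifs. They run from 250 bases before to 50 after the start (RefSeq, GRCm38.p6), 5′ to 3′ on the strand of the gene, at chr2:34771840-34772139 (Hspa5), chr14:118937682-118937981 (Dnajc3), chr8:94386179-94386478 (Herpud1) and chr10:127290543-127290842 (Ddit3), all on the plus strand. Capitals mark the ERSE (CCAAT, 9 further bases, CCACG) in Hspa5 and Dnajc3, the related ERSE-II (ATTGG, 1 further base, CCACG) in Herpud1, and a CCAAT box in Ddit3, which lies on the minus strand and so reads ATTGG; each was searched on both strands.
Hspa5: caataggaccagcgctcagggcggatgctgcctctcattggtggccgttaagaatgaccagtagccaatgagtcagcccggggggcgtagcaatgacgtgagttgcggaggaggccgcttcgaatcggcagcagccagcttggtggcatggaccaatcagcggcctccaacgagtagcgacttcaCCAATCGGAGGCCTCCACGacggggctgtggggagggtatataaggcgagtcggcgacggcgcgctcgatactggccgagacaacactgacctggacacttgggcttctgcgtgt
Dnajc3: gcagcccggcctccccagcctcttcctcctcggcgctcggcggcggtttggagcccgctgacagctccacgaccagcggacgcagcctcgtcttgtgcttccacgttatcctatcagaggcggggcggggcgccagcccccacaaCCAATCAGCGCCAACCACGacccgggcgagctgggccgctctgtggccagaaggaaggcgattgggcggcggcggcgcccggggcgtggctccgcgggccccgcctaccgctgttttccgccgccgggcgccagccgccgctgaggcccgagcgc
Herpud1: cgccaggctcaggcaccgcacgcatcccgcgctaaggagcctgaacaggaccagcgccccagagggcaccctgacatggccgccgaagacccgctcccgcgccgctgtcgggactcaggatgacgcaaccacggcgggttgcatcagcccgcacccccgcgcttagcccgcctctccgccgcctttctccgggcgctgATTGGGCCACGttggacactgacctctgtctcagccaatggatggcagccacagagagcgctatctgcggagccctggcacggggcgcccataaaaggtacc
Ddit3: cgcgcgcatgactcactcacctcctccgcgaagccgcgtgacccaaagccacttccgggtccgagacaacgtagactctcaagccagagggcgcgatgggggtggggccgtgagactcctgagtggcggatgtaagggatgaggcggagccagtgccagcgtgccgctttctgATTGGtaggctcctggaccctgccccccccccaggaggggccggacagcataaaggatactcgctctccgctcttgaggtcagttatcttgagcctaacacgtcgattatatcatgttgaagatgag

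Hspa5, the chaperone BiP, gave 13.65 and 13.55 at 21 mo, against 12.78 and 12.40 at 6 mo, and rose by 1.01 ± 0.15 (adjusted p = 0.0466). Dnajc3, an inhibitor of the kinase PERK and cochaperone of BiP, gave 9.24 and 9.40, against 8.03 and 8.28, and rose by 1.16 ± 0.13. Herpud1, which acts in the disposal of misfolded proteins, gave 11.17 and 11.34, against 9.82 and 10.12, and rose by 1.29 ± 0.18. Ero1a, the oxidase that forms disulfide bonds, gave 9.60 and 9.83, against 8.17 and 8.07, and rose by 1.60 ± 0.23. In the opposite direction, Ddit3, the stress-induced factor CHOP, gave 7.19 and 7.03 at 21 mo, against 9.76 and 9.23 at 6 mo, and fell by 2.38 ± 0.21. Calr (1.06, adjusted p = 0.0503), Pdia3 (0.99, adjusted p = 0.0523) and Canx (0.86, adjusted p = 0.0974) were higher on both 21 mo arrays without passing the test. The ERSE was found in 7 of 26 promoters of this list, those of Canx, Hspa5, Calr, Pdia6, Dnajc3, Hsp90b1 and Creld2, against 17 of 9882 genes on the array with a promoter (0.172%) and 0.119% of all 32851 promoters of the table. Of the 7, Hspa5 and Dnajc3 rose, and Creld2 had a value of -0.28 and Pdia6 of 0.14. The ERSE-II was found in 7 of 9882 genes (0.0708%), and both motifs hold a CCAAT box, which 38.3% of these genes have. On the 4 arrays alone limma called 1 of the 30 genes higher and none lower, and none in either direction with a replicate block.

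Of 32 cytosolic chaperone genes 2 rose (6.25%, against 2.32% of all genes) and none fell, at a median of 0.28. The 2, Dnaja2 and Dnajb6, are genes that the study itself names as rising on these samples. That share is therefore no independent evidence of a rise. Dnaja2 gave 10.03 and 9.74 at 21 mo, against 7.51 and 8.02 at 6 mo, and rose by 2.12 ± 0.31. Dnajb6, a suppressor of protein aggregation, gave 12.62 and 12.74, against 11.43 and 11.74, and rose by 1.10 ± 0.13. None of the 8 subunits of the chaperonin TRiC passed the threshold, at a median of 0.23; Cct8 had the largest value, 2.36 ± 0.38 (adjusted p = 0.0540), and Cct6a changed by 0.81 ± 0.08, under 2-fold at an adjusted p of 0.0279. Hspa8 (0.12) and Hsp90aa1 (0.26), abundant chaperones of all cells, did not pass the test. In the proteasome, Psmb7 (2.30 ± 0.22) and Psmd1 (1.46 ± 0.19) rose, and Psmd3 (-1.25 ± 0.09) and Psmb6 (-1.09 ± 0.13) fell, out of 40 genes. These made 5% of the list in each direction, against 2.32% of all genes for rises and 2.57% for falls.

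Adhesion genes rose in 4 of 34 cases (11.8%, against 2.32% of all genes) and fell in none, at a median of 0.04; limma called none of the 34 on the 4 arrays alone or with a replicate block. Besides Selp and Alcam these were Ncam1, the neural cell adhesion molecule, with 7.13 and 6.14 at 21 mo, against 3.60 and 3.51 at 6 mo, and F11r, the junctional adhesion molecule A, with 9.24 and 9.21, against 5.85 and 6.97. Ncam1 was near the bottom of the scale at 6 mo, and its 5 other probe sets, all near that level at both ages, had values between -0.03 and 0.01. App, the amyloid precursor protein, gave 11.26 and 11.27 at 21 mo, against 8.66 and 8.64 at 6 mo, a rise of 2.61 ± 0.03 (adjusted p = 0.00353) that held in 14 of 15 alternatives. Of the enzymes that cut it, Bace1 fell by 1.55 ± 0.13 and the γ-secretase subunit Psenen fell by 1.03 ± 0.09. A dimmer probe set of Bace1, above log2 5 at both ages, gave -0.16 and was not called. Ctsb, a lysosomal protease, rose by 1.65 ± 0.14, and Ctsz fell by 1.37 ± 0.20. Of 47 inflammatory genes, Ccl6 and Selp rose (4.26%, against 2.32% of all genes) and none fell, at a median of 0.01. Ptgs2, the inducible cyclooxygenase, gave 9.75 and 10.70 at 21 mo, against 8.12 and 5.87 at 6 mo, and the gap between the 6 mo arrays left its change of 3.23 ± 0.90 at an adjusted p of 0.142. Icam1 did not differ beyond its spread, with 10.86 and 11.24, against 10.99 and 11.26. Among 26 regulators of NF-κB, Bcl10 (1.45 ± 0.03), a scaffold that activates the pathway, and the ubiquitin ligase Traf6 (1.28 ± 0.13) rose, and the subunit Relb (-1.61 ± 0.17) fell. Thus 7.69% of this list rose and 3.85% fell, against 2.32% and 2.57% of all genes.

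Signaling genes changed one by one rather than as whole lists. Ctnnb1 on its brightest probe set gave 14.35 and 14.26 at 21 mo, against 13.16 and 13.09 at 6 mo, a rise of 1.18 ± 0.05. Wwtr1, the Hippo coactivator TAZ, gave 10.69 and 10.85, against 8.32 and 7.74, and was 3.71 and 4.25 at 2 mo, so that it was higher at each later age. Dusp6, a phosphatase that restrains ERK, gave 11.07 and 11.13, against 9.02 and 8.53. It was the single riser of 29 immediate early and related genes (3.45%, against 2.32% of all genes). In the TGF-β pathway, the inhibitor Smad7 rose by 1.61 ± 0.06, whereas the common mediator Smad4 gave 11.18 and 11.31, against 12.26 and 12.39, and fell by 1.08 ± 0.10; other probe sets of Smad4 gave 0.48 and -0.23. Pik3ca, a catalytic subunit of PI3 kinase, rose by 1.08 ± 0.15, and Stk11, the kinase LKB1 that HSC need, fell by 1.51 ± 0.15. Another probe set of Pik3ca gave 0.23 and was not called. Stat4 rose by 1.08 ± 0.14, Gadd45a, a p53 target, by 1.84 ± 0.12, and the D cyclin Ccnd2 fell by 1.42 ± 0.16 on 1 of its 7 probe sets, the others lying between -0.99 and 0.37.

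Of 17 genes of glycolysis and its exit, 3 rose (17.6%, against 2.32% of all genes) and none fell, at a median of 0.33. These were Pkm, pyruvate kinase, with 10.13 and 10.27 at 21 mo, against 8.74 and 8.64 at 6 mo; Hk1, a hexokinase (1.18 ± 0.17); and Pdha1, a subunit of pyruvate dehydrogenase (1.01 ± 0.12). With all 14 arrays fitted none of the 17 was called. Of 66 genes of oxidative phosphorylation none rose and 5 fell (7.58%, against 2.57% of all genes), at a median of -0.33, with 42 negative. All 66 were detected, and 48.7% of all detected genes had a positive change, against 24 of these 66. The median span of the list was 7.39 kb, and 7.22% of detected genes of 5 to 10 kb fell. Ndufs8 of complex I gave 8.97 and 8.69, against 11.86 and 11.16, and Sdhb of complex II gave 7.96 and 7.46, against 10.60 and 10.03. Ndufa8 fell by 1.75 ± 0.20, Atp5j2 by 1.43 ± 0.19 and Cox5b by 1.33. The median of this list was the same, -0.33, between 2 and 6 mo. Of the 66, none was called on the 4 arrays alone, whereas 6 fell with a replicate block.

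Of 68 mitochondrial ribosomal protein genes none rose and 7 fell, 10.3% of the list against 2.57% of all genes, at a median of -0.48, and 56 were negative. Of the 68, 63 were detected. Among detected genes with a span of 5 to 10 kb, where the list's median span of 7.45 kb lies, 7.22% fell. Mrps26 gave 7.72 and 7.95 at 21 mo, against 9.69 and 9.47 at 6 mo, Mrps7 gave 7.04 and 7.16, against 8.52 and 8.51, and both fell. Mrps34 (-1.43 ± 0.18), Mrpl44 (-1.40 ± 0.16), Mrpl3 (-1.27), Mrps11 (-1.14) and Mrpl2 (-1.12) also fell. On the 4 arrays alone 1 of the 68 fell. Of 40 cytosolic ribosomal protein genes 1 fell (2.5%, against 2.57% of all genes), Rps14 (-1.68 ± 0.11), at a median of -0.24. The antioxidant genes Gsr, glutathione reductase, with 7.43 and 8.29 at 21 mo, against 4.84 and 4.71 at 6 mo, the metallothionein Mt2 (2.52 ± 0.33) and the thioredoxin reductase Txnrd1 (1.08 ± 0.13) rose, out of 29 (10.3%, against 2.32% of all genes), and none of the 29 was called on the 4 arrays alone or with a replicate block. In lipid synthesis, Cyp51 of the cholesterol pathway rose by 1.99 ± 0.25, and Fasn, fatty acid synthase, fell by 1.95 ± 0.24 and Fdps by 1.40 ± 0.15.

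Of 13 sirtuins and histone deacetylases, 3 fell (23.1%, against 2.57% of all genes) and none rose, at a median of -0.65. All 3, and Dnmt3b and Smarca4 below, are genes that the study itself names as falling on these samples. These shares are therefore no independent evidence of a fall. Sirt3, a mitochondrial deacetylase, gave 8.63 and 8.57 at 21 mo, against 9.70 and 9.95 at 6 mo; Sirt7, a nucleolar sirtuin, gave 7.69 and 7.72, against 8.74 and 9.03; and Hdac1 gave 8.95 and 8.97, against 10.19 and 10.03. Each stood apart from the 6 mo arrays by about the same distance, between -1.22 and -1.15. Sirt1 (0.41) and Sirt2 (-0.80) did not pass the test, nor did Hdac5 (-1.45, adjusted p = 0.0510) and Hdac6 (-1.67, adjusted p = 0.282). Dnmt3b, a de novo DNA methyltransferase, gave 9.38 and 9.37, against 11.25 and 11.08, and fell by 1.79 ± 0.16 on this probe set, whereas its other probe set had a value of 0.77 ± 0.34. Smarca4, the ATPase of SWI/SNF complexes, fell by 1.52 ± 0.18, the 1 gene called of 21 of SWI/SNF remodeling (4.76%). Phc2 of Polycomb fell by 1.98 ± 0.14, and with Dnmt3b made 2 of 35 genes of DNA methylation and Polycomb (5.71%). The calls of Sirt3 and Sirt7 were lost on the 4 arrays alone and with a replicate block.

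Genes of RNA decay had a median of -0.87, the lowest of the lists of processes, with 3 of 12 lower (25%, against 2.57% of all genes) and none higher. Exosc8, a core subunit of the RNA exosome, gave 5.05 and 5.33 at 21 mo, against 7.55 and 7.24 at 6 mo, and Exosc10, its nuclear exonuclease, gave 5.78 and 5.83, against 8.17 and 7.74. Rnaseh2c, a subunit of the RNase that removes RNA from DNA, gave 8.47 and 8.38, against 9.78 and 9.75, and kept its call in 13 of 15 alternatives. Exosc8 and Exosc10 kept theirs in 5 and 7 of 15, and lost them on the 4 arrays alone. In splicing, Hnrnpl (1.68 ± 0.24) and Rbm25 (1.59 ± 0.23) rose and Lsm4 (-1.83 ± 0.25) fell, out of 53. That was 3.77% higher and 1.89% lower, against 2.32% and 2.57% of all genes. Other probe sets of Rbm25 above log2 5 gave 1.40, 0.05 and -0.42 and were not called. Of 59 DNA repair genes 1 fell (1.69%, against 2.57% of all genes), Ddb2 (-1.14 ± 0.14), at a median of -0.04. Another probe set of Ddb2 gave -0.0063, and the call was kept in 4 of 15 alternatives. Blm (-0.75), Xrcc1 (-0.66), Rad52 (-1.84), Xab2 (-1.22) and Polb (-0.76) did not pass the test. Of 42 genes of replication and mitosis, Nusap1 rose (2.39 ± 0.32) and Mcm7 of the replicative helicase fell (-1.51 ± 0.13), at a median of -0.35. Each made 2.38% of that list, near the 2.32% and 2.57% of all genes. At the nuclear envelope, Tor1a (-1.47 ± 0.17) and Tor1b (-1.21 ± 0.09) fell with Syne1, out of 22 genes (13.6%, against 2.57% of all genes). Lmna, with 5.38 and 5.37, against 7.41 and 5.70, did not pass the test. Ifi35 was the 1 interferon or MHC class I gene of 28 called (3.57%, against 2.57% of all genes), and fell by 1.68 ± 0.19.

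Of the 14 genes that the study chose as rising in its selected list, 6 rose late, App, Selp, Dnaja2, Ctsb, Dnajb6 and Hspa5, and 13 were positive, at a median of 1.56. Of its 11 falling genes 4 fell late, Sirt3, Sirt7, Smad4 and Eng, and 10 were negative, at a median of -1.08; Sptbn1, the exception, had 0.57 ± 0.13 on its brightest probe set and fell by 1.79 ± 0.21 on a dimmer one. Of 11 genes named as rising in its text, where Pml comes from another study and Runx1 from both, 2 rose, Ctnnb1 and Dnajc3. Of those named as falling 3 of 7 fell, Dnmt3b, Smarca4 and Hdac1. Apart from Pml, the study named these genes on these samples, so that the counts are no independent evidence of direction. Selp and Eng are also members of lists above, whose shares are thus not independent of that choice. Ctsc (1.25, adjusted p = 0.120), Ctss (1.56, adjusted p = 0.0526), Tlr4 (1.56, adjusted p = 0.129) and Smarcb1 (-1.87, adjusted p = 0.0760) were among those not called.

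Probe sets of the same gene often differed. Of 315 genes with a rising probe set and at least 2 probe sets, 36 had 2 or more that rose, and 5 had another that fell; of their 609 other probe sets, 409 were positive. Of 207 such genes with a falling probe set, 39 had 2 or more that fell and 5 had another that rose, and 290 of 366 other probe sets were negative. Arf6 rose on a dim probe set, with 7.13 and 6.46 at 21 mo, against 3.13 and 3.10 at 6 mo, while its brightest gave 13.50 and 13.66, against 12.43 and 12.73, a change just under the threshold. Serinc3 rose by 3.11 ± 0.06 on a dim probe set and changed by 0.45 ± 0.10 on its brightest. Bcl10, by contrast, rose on 2 of 3 probe sets by 1.45 and 1.43, and Ndufs8 fell on 3 of 6. With the mean over a gene's probe sets in place of the brightest, 295 genes rose and 311 fell, of which 189 and 234 were the same genes.

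The late change was set against the early change, 6 minus 2 mo, by testing the difference between them. The late change was the higher in 41 probe sets (0.181%) and the lower in 31 (0.137%), and 36 and 25 of these also rose or fell late. The 6 mo arrays enter both changes, with opposite sign. Among the 41, 35 had an early change under 0.5, as in Mapk6 (difference 4.42), Ctnnb1 (4.26), Hs6st1 (4.12), Serinc3 (3.12), Tgs1 (2.87) and Tbl1x (3.45). Tbl1x, a part of corepressor complexes, gave 5.76 and 5.87 at 2 mo, 5.40 and 5.32 at 6 mo, and 8.36 and 8.36 at 21 mo, so that the whole rise lay after 6 mo. Among the 31, Anxa6 (-2.71) and Kif22 (-2.58), a chromosome-binding kinesin, fell late; Kif22 was level between 2 and 6 mo (-0.01), and Anxa6 had an early value of -0.89. Between 2 and 6 mo limma called 6 probe sets higher and 4 lower. None of the 288 rising or 318 falling genes was called early in the same direction, and their median early changes were 0.08 and -0.13. When any 1 of the 6 arrays was left out, limma called none of these differences, while 648 to 1153 probe sets were higher and 794 to 1187 lower by 2-fold with a p up to 0.05 before adjustment. All 41 and all 31 kept their direction in each of those fits.

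The 12 mo arrays, which were not fitted, lay far apart from each other. On a scale where the mean of the 6 mo arrays is 0% and that of the 21 mo arrays 100%, the median of the 288 rising genes was -4.99% and -4.09% on the 2 mo arrays, 85.6% on 12 mo array A and 5.07% on 12 mo array B. For the 318 falling genes it was -8.06% and -9.45% at 2 mo, 79.8% on 12 mo array A and 13.8% on 12 mo array B. Thus 254 of 288 and 250 of 318 genes lay nearer to 21 mo on 12 mo array A, against 37 and 63 on 12 mo array B. The median absolute difference between arrays A and B over all probe sets was 0.21 at 12 mo. On the HSC arrays of 12-mo-old mutants the rising genes lay at 19.1% and 22.1% in p53+/m and at 24.0% and 39.8% in p53+/-, and the falling genes at 34.7% and 43.6% in p53+/m and at 35.7% and 58.3% in p53+/-. On the WBM arrays they lay at 68.5% and 61.5% for the rising and 125% and 111% for the falling genes.

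**Figure D4:**
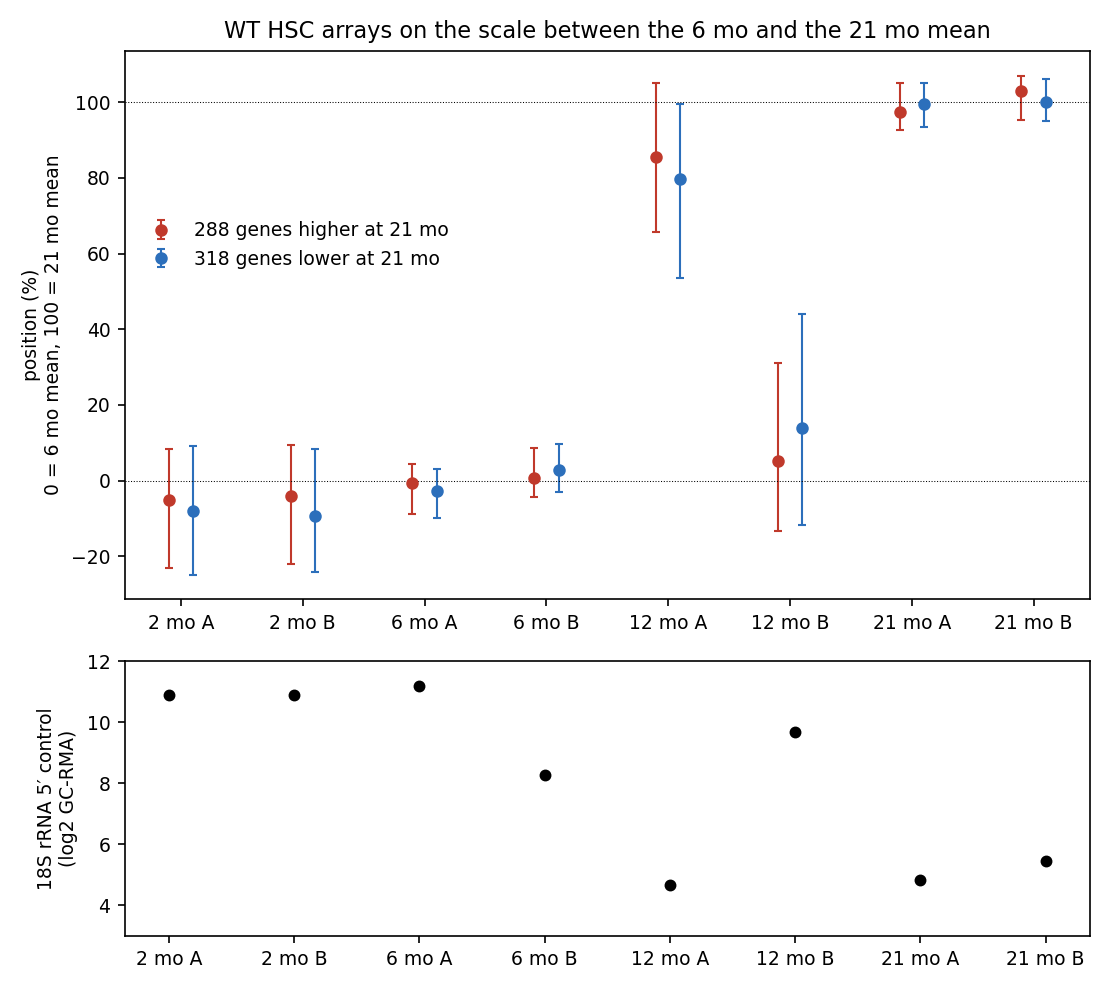
Upper panel, position of each WT HSC array on the scale between the mean of the 6 mo arrays (0%) and of the 21 mo arrays (100%), as the median and quartiles over the 288 genes that rose (red) and the 318 that fell (blue); lower panel, log2 GC-RMA value of the 5′ control probe set for 18S rRNA. The genes were chosen on the 6 and 21 mo arrays, so those positions are fixed by the choice; 12 mo array A (85.6%) and 12 mo array B (5.07%) lie apart, and the 18S control is low on the 21 mo arrays and on 12 mo array A.

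A control differed between arrays, also between arrays of the same age. The 5′ probe set for 18S rRNA gave 4.84 and 5.44 at 21 mo, against 11.19 and 8.28 at 6 mo, and was 10.91 and 10.88 at 2 mo, 4.66 on 12 mo array A and 9.68 on 12 mo array B. Its order over the WT HSC arrays set the 21 mo arrays and 12 mo array A below the others, and its part in the late change was not tested. The middle probe set for 18S rRNA gave 4.70 and 4.98 at 21 mo, against 9.39 and 5.46 at 6 mo. The 3′ minus 5′ difference of the actin control, a measure of how far the amplified RNA reaches, was 3.11 and 3.55 at 21 mo, against 4.22 and 3.27 at 6 mo, and that of Gapdh was 3.20 and 4.10, against 3.40 and 3.07, so that the ages overlapped in both.

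The genes that rose were longer than those that fell, a property that the calls did not use. The median genomic span was 30.4 kb in the 288 rising genes (quartiles 14.6 and 66.4) and 14.1 kb in the 318 falling genes (7.78 and 27.0), beside 22.4 kb in the 6293 genes at a log2 value of 5 or above on at least 2 of the 6 arrays. Of these detected genes, 2.77% rose and 6.23% fell among the 722 genes of up to 5 kb, and 6.26% rose and 2.60% fell among the 847 genes over 80 kb. Over all genes of these bins, called or not, the median change was -0.23 up to 5 kb, -0.22 from 5 to 10 kb, -0.15 from 10 to 20 kb, 0.01 from 20 to 40 kb, 0.14 from 40 to 80 kb and 0.17 above. The median log2 value was 8.20 in the rising and 8.30 in the falling genes, and over the span bins it lay between 8.33 and 8.49 up to 80 kb and was 7.97 above. Short genes include those of lists described above, with a median span of 7.45 kb in mitochondrial ribosomal protein genes and 7.39 kb in those of oxidative phosphorylation. By array, the median of genes over 80 kb minus that of genes up to 10 kb, each relative to the mean of the 6 arrays, was -0.20 and -0.23 at 2 mo, -0.17 and 0.01 at 6 mo, 0.16 and 0.20 at 12 mo, and 0.24 and 0.41 at 21 mo. Both 12 mo arrays thus lay between the 6 and the 21 mo arrays, and the WBM arrays, at 0.63 and 0.59, lay above them all.

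**Figure D5:**
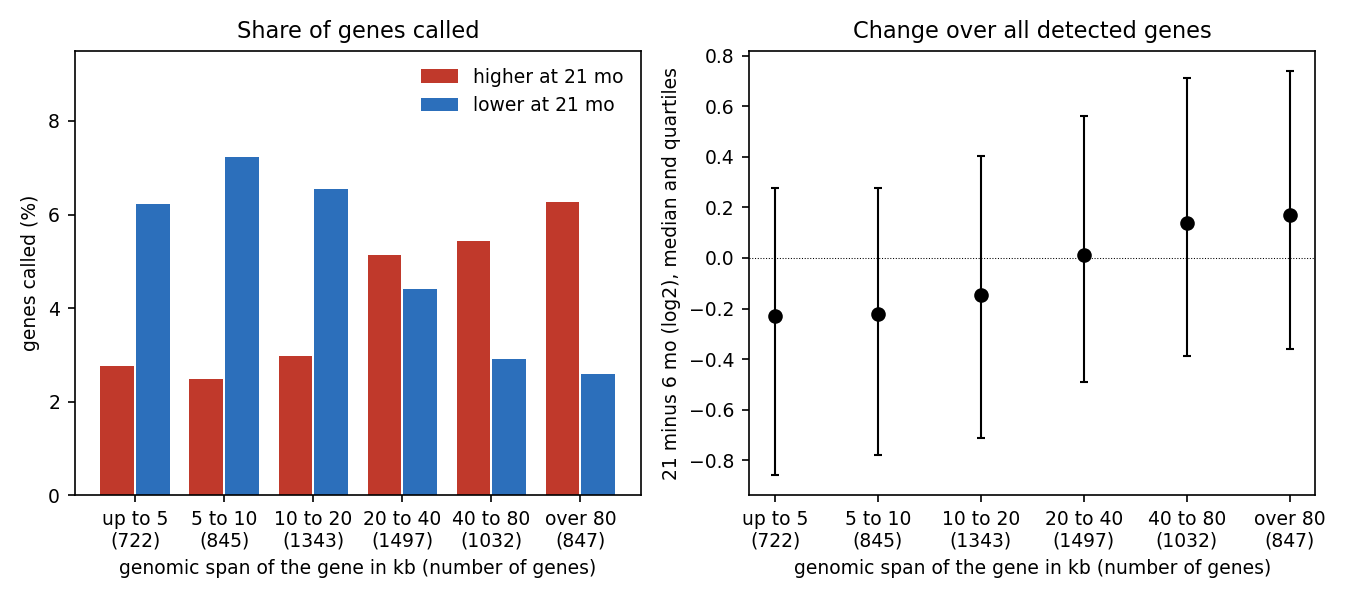
Detected genes grouped by genomic span in kb, with the number of genes in parentheses: left, percentage that rose (red) and fell (blue) at 21 mo; right, median and quartiles of the change over all genes of the bin (log2, 21 minus 6 mo). The share that rose is 2.77% in the shortest and 6.26% in the longest genes, the share that fell 6.23% and 2.60%, and the median change runs over the bins to 0.17 in the longest.

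Promoters differed less. Of the rising genes 231 and of the falling genes 261 have a promoter in RefSeq's table, as do 5217 detected genes, and the median GC content was 62.7%, 59.0% and 61.3% in these groups. The ETS site CCGGAAG was found in 17.3% of rising, 27.2% of falling and 21.2% of detected genes, the GC box GGGCGG in 72.7%, 61.7% and 67.8%, the AP-1 site TGANTCA in 6.93%, 3.07% and 4.64%, and AGATAA, read by GATA factors, in 3.90%, 8.43% and 5.94%. Over all 32851 promoters of the table the shares were 8.86%, 35.7%, 7.81% and 11.2% for these 4 motifs. The TATA box TATAAA (8.23%, 5.36% and 6.79%), the CCAAT box (37.7%, 41.0% and 38.6%) and the cyclic AMP element TGACGTCA (3.46%, 3.45% and 3.53%) stood closer together. All were searched on both strands, none of these 7 overlaps another by its letters alone, and a match is a description of the sequence and not a bound site.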

How the data were processed

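RNA of pooled HSC was measured on Affymetrix MOE430A arrays after 2 rounds of in vitro transcription. Images were read with MAS 5.0, and the authors deposited log2 expression values from GC-RMA, which corrects background by probe GC content and normalizes between arrays. They cover 22626 probe sets and 64 controls. GCRMA's version is not given in the sources used here, nor is it known whether all arrays were normalized together. Such values shrink differences of dim probe sets near the bottom of the scale. The arrays give no read depth, and 2 arrays per age limit the precision; between 43.3% and 43.6% of probe sets were at log2 5 or above on the 21 and 6 mo arrays.

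Groups followed the sample titles. Group means of the 6 WT HSC arrays of 2, 6 and 21 mo were fitted with lmFit and eBayes of limma 3.58.1 (R 4.3.3), and the contrasts 21 minus 6 mo and (21 minus 6 mo) minus (6 minus 2 mo) were tested with two-sided moderated tests, adjusted by Benjamini-Hochberg over the 22626 probe sets. A probe set was called at an adjusted p under 0.05 and 2-fold. The 12 mo arrays, whose A and B disagree, were left out of the fit. No filter on low values was applied. The fit was tested on simulated data.

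Probe sets were named by the platform annotation: 20380 carry 1 symbol, 691 several and 1555 none, and 20351 of those with 1 symbol are in RefSeq. A gene was read on its brightest probe set by the mean of the 6 fitted arrays. The genes named are the 12 largest rises and falls with 1 symbol, arrays apart and a higher group mean of at least log2 5, up to 4 called members of each list in each direction, the genes of the study's lists, and the 6 largest called differences between late and early change in each direction. Further list members, called or not, were named after their values were seen. The members and lists were chosen with earlier results of these data known.

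Letters A and B did not pair the arrays: deviations of same-lettered arrays from their group means correlated at -0.0424 for 6 and 2 mo, 0.0225 for 21 and 2 mo and -0.0827 for 21 and 6 mo. Alternatives were other sets of arrays, a quadratic age term, quantile normalization, median centring, a filter on low values, an intensity-dependent prior, other thresholds, a replicate block, the mean over probe sets, and leaving out each array.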

Additional observations from a re-analysis of the deposited data

Results flagged for a closer look

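In 4 genes the early and the late change ran in opposite directions, each by 2-fold or more, and the difference between them passed the test. All 4 were highest at 6 mo. Mau2, which loads cohesin onto chromosomes, gave 7.60 and 7.93 at 2 mo, 9.41 and 9.40 at 6 mo, and 7.17 and 7.20 at 21 mo, a difference of late minus early change of -3.85 (limma, adjusted p = 0.0404). Knop1, a nucleolar protein, gave 4.88 and 4.94 at 2 mo, 6.24 and 6.32 at 6 mo, and 4.28 and 4.21 at 21 mo, a difference of -3.41 (adjusted p = 0.0188). Plcb2, a phospholipase C of blood cells, gave a difference of -3.18 (adjusted p = 0.0493) and Rufy1, which acts in endosomes, -2.94 (adjusted p = 0.0475). The arrays at 6 mo lay above those of the other 2 ages in each of them, and no such difference was called once any of the 6 arrays was left out.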

How the results depend on the processing

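The calls depended on the fit. The direction of a called change could hardly reverse, because many of the alternatives keep the group means of the 6 and 21 mo arrays. In every called probe set these arrays also lay wholly apart, so leaving 1 of them out cannot reverse the sign. A kept direction is therefore no evidence that the changes are stable. Among 114 named probe sets that were called, none changed direction under any of 15 refitted alternatives; 2 kept the call in all 15, 28 in 10 or more and 21 in under 5. Counts of late rises and falls, 501 and 466 in the fit used, were 185 and 167 on the 6 and 21 mo arrays alone, 118 and 98 with a quadratic trend, 42 and 38 on all 8 WT HSC arrays, 1171 and 1158 among probe sets at log2 5 or above on 2 arrays, 757 and 712 with an intensity-dependent prior, and 1292 and 1230 by 2-fold with a p up to 0.05 before adjustment. With a replicate block they were 248 and 230, of which 217 and 184 were shared. Leaving out 1 array gave 185 to 489 rises and 154 to 403 falls, of which 145 to 245 and 113 to 225 were shared; without a 2 mo array the fit has the same residual arrays as that on the 6 and 21 mo arrays alone, and gives the same counts. Counts stayed within 1.5 times with all 14 arrays (379 and 403), though only 197 and 223 of these were among the 501 and 466, with quantile normalization (346 and 346, of which 339 and 332 were shared), median centring (487 and 427, of which 462 and 424 were shared) and no fold threshold (713 and 675). The cause of the other shifts was not tested.

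The difference between late and early change, 41 higher and 31 lower, gave 0 and 0 calls with a replicate block and 0 and 0 on leaving out any array. It was 3 and 2 on all 8 WT HSC arrays, 30 and 20 with quantile normalization, 23 and 20 with median centring, 4 and 2 with the filter on low values, 16 and 5 with an intensity-dependent prior, and 756 and 915 before adjustment. The crossed results were all of genes that were not called: on leaving out 1 array, Icam1 ran between -0.26 and 0.11, Cct3 between -0.49 and 0.11 and Cct7 between -0.0448 and 0.70, and Cct3 was 0.00958 with a quadratic trend.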
